A study of Homo sapiens with 26 samples.

Results

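The genes described here are 35 genes of the actin cytoskeleton and of cell contractility: actins, their monomer-binding and nucleating partners, tropomyosins, non-muscle myosins, myosin light chains and their kinase, calponins and transgelins, cross-linkers, focal adhesion proteins, small GTPases (RHOA, RHOB and RHOC) and their effectors, a pair of microvillus bundlers and the transcription factor SRF. They were chosen by gene symbol from a written list and were looked up by that symbol in a table of 58735 human genes, where all 35 were found, each with a position in the GENCODE 29 annotation of hg38. Of the 35, 33 had enough reads to be tested. The other two were CNN1, the smooth muscle calponin, with 0 to 2 reads per library, and VIL1, the intestinal microvillus protein villin, with 0 to 3 reads per library. A count of 0 in a library allows up to 3 reads, so both were at or under the limit of detection at this depth.

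Polyadenylated RNA was sequenced from human airway epithelial cells in 26 libraries, which held 14658319 to 20413839 assigned reads each. CF cells gave 6 libraries in high and 6 in normal glucose, and WT cells gave 5 in high and 6 in normal glucose. A further 3 libraries hold WT cells, in normal glucose, marked by their labels as not polarized. The CF cells are labelled as the line 16HBEge with the genotype DeltaF508 CFTR, the common cystic fibrosis allele of the CFTR chloride channel, and the WT cells as the line 16HBE14o- with WT CFTR. Both descend from an immortalized culture of human bronchial epithelium. Cells were plated on Transwells, permeable filter inserts, at 250000 cells per well, and were kept for 7 days in medium with 17.5 mM (high) or 5.5 mM (normal) glucose that was renewed daily. RNA of 2 Transwells was pooled for each library. All 5 groups carry the same plating and time in the labels, which do not say how the not polarized cells were grown. The other libraries are called polarized here only by contrast. Each genotype is represented by a single line, so genotype and line cannot be told apart, and the labels leave unsaid whether replicate libraries stem from independent cultures. The p-values therefore measure only the spread between these libraries, which may be technical.

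The libraries numbered 1 to 3 and those numbered 4 to 6 of the 4 glucose groups stood apart from each other, and the labels do not say what the numbers mark. Among the 35 genes, MYL6 and ARPC2 were lower in every library numbered 4 to 6 than in every library numbered 1 to 3 of the same group, in all 4 groups, and TLN1 and PXN were higher in the same way. The share of all genes that separate like this was not computed, so nothing particular to these genes can be read from it. MYL6 averaged 508 CPM in libraries 4 to 6 and 686 CPM in libraries 1 to 3 of CF cells in high glucose, and 452 against 597 CPM in WT cells in normal glucose. Results were therefore also computed within each set of numbers, and values that change a call stand beside the result or in the account of the sets further on. The 3 not polarized libraries are numbered 1 to 3. In WT cells in high glucose the set 4 to 6 holds only 2 libraries, against 3 in each other glucose group. Results of libraries 4 to 6 alone that involve WT cells in high glucose rest on these 2. Epithelial identity was checked first. The summed level of EPCAM, CDH1, KRT8, KRT18, KRT19 and CLDN4 was 6189 to 7232 CPM in CF cells and 5288 to 5881 CPM in WT cells in high glucose, 6465 to 7088 CPM in CF cells and 5609 to 6604 CPM in WT cells in normal glucose, and 6157 to 6211 CPM in not polarized cells. PDGFRA, DCN and LUM of fibroblasts, DES and ACTG2 of smooth muscle and PTPRC of immune cells had a median of 0 to 0.0578 CPM. COL1A1 was read at 12.5 to 43.2 CPM, and the smooth muscle list as a whole summed to between 20.7 and 64.3 CPM, most of it from SMTN. Other markers of these lists were read in all 26 libraries, with medians of 1.38 CPM for MYH11, 3.82 CPM for SYNPO2, 0.796 CPM for LMOD1, 0.929 CPM for PDGFRB and 0.806 CPM for CD14. Of the endothelial list, CDH5 was read at 11.2 to 27.2 CPM and KDR at 7.28 to 38.9 CPM, while PECAM1 and VWF had medians of 0 and 0.282 CPM. In bulk RNA, fewer cells with a transcript and less of it per cell cannot be told apart.

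In epithelial cells, beta- and gamma-actin form the cortical and junctional filaments, the lamellipodial networks and the core of microvilli. Non-muscle myosin II slides these filaments when its regulatory light chain is phosphorylated by myosin light chain kinase or by the ROCK kinases, and the tension of the perijunctional ring this produces is known to open or tighten the paracellular barrier. The level of unpolymerized actin also feeds back on transcription. Free G-actin holds the cofactor MRTF in the cytoplasm, and when filaments form, MRTF enters the nucleus and drives genes through SRF, which binds the CArG box, a short A/T-rich element flanked by CC and GG.

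Sequence was read from the RefSeq promoter table of build GRCh38.p14, in which 30 of the 35 genes were found. ACTB, MYL9, TAGLN, ESPN and VIL1 were not matched in it. The CArG box in its strict form (CC, then 6 bases that are each A or T, then GG) was searched on both strands, which is 1 search because the element is its own reverse complement, in the 250 bases before each transcription start. It was found in 7 of the 30 promoters (23.3%), against 1.16% of all 35116 promoters of the table and 0.996% of the 10447 promoters of tested protein-coding genes. The 7 genes were SRF, ACTG1, TPM4, MYLK, CNN2, FLNA and ROCK2. A match describes these letters only and is not a measured binding site, and no match says nothing about SRF. The 7 stretches of 120 bases are printed 5′ to 3′ on the strand of the gene, with each match in capitals, because their genes recur in the comparisons described further on.
SRF (chr6:43171149-43171268, plus strand): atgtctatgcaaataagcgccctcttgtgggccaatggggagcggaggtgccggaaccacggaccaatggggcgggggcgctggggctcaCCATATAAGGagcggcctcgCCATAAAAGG
ACTG1 (chr17:81512800-81512919, minus strand): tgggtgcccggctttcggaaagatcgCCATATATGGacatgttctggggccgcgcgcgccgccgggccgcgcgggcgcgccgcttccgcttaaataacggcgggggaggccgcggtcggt
TPM4 (chr19:16067345-16067464, plus strand): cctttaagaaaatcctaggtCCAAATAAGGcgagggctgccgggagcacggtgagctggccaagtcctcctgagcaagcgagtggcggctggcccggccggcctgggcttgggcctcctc
MYLK (chr3:123620549-123620668, minus strand): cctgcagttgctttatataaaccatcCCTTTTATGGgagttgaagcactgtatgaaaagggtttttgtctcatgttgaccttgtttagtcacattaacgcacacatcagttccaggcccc
CNN2 (chr19:1026488-1026607, plus strand): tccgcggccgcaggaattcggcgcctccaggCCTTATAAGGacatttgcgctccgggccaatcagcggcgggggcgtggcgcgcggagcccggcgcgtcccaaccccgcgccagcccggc
FLNA (chrX:154374635-154374754, minus strand): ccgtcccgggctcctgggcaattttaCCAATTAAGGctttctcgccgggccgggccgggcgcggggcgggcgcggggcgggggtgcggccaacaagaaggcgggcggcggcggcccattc
ROCK2 (chr2:11345438-11345557, minus strand): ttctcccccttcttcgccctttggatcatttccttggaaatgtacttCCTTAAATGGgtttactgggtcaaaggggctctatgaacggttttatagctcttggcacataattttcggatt
SRF held 2 matches, whose first bases lie 30 and 10 bases before the start. In ACTG1, MYLK and FLNA the match begins 94 bases before the start, in CNN2 89 bases, in ROCK2 73 bases and in TPM4 173 bases before it. The start in the RefSeq table is not always the 5′ end of the gene as the deposited table gives it. For MYLK it lies 263783 bases inside the gene and 10499 bases from its 3′ end, so the stretch printed is before an internal start and not before the start of the long transcript that encodes the kinase. MYLK is known to give a short product without the kinase domain, telokin, from its 3′ part, and the counts per gene do not separate the 2 kinds of transcript. The start used lies 11048 bases inside ACTG1, 2893 bases inside ROCK2 and 517 bases inside TPM4, and for SRF, CNN2 and FLNA within 30 bases of the 5′ end.

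Per length of transcript, the 35 genes covered the whole range of expression. By the authors' FPKM in WT cells in normal glucose, ACTB stood first with 736 ± 51.6 FPKM and ACTG1 second with 595 ± 31.9 FPKM (SD, n = 6). PFN1, the actin monomer-binding profilin, had 195 ± 12.5 FPKM, MYH9, the heavy chain of non-muscle myosin IIA, 178 ± 31.6 FPKM, TAGLN2, the non-muscle transgelin, 168 ± 12.2 FPKM and FLNA, the cross-linker filamin A, 141 ± 17.0 FPKM. MYH9, TAGLN2 and PFN1 overlap within their spread. At the other end stood MYLK with 2.37 ± 0.247 FPKM, TAGLN with 1.06 ± 0.183 FPKM and ACTA2, the smooth muscle actin, with 0.349 ± 0.116 FPKM. ACTA2 had 12 to 37 reads and TAGLN 31 to 110 reads per library, and together with CNN1 they are the members best known from smooth muscle. FAS and STAMBPL1, which overlap ACTA2 on the opposite strand, held 1772% and 986.6% as many reads as ACTA2. Their part in the ACTA2 count was not tested. The 35 genes together took 1.36% ± 0.0253 of all assigned reads in high and 1.43% ± 0.0827 in normal glucose in CF cells (SD, n = 6 each). In WT cells they took 1.53% ± 0.0957 in high glucose (n = 5), 1.53% ± 0.103 in normal glucose (n = 6) and 1.39% ± 0.00472 in not polarized cells (n = 3).

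In the text that follows, levels are read counts scaled to a common library size with TMM factors (CPM). For a group of 6 libraries the lowest, the median and the highest value are given in that order, and for WT cells in high glucose (5 libraries) and not polarized cells (3 libraries) every library is given. Fold changes are on the log2 scale with their standard error, and adjusted p-values are those of edgeR's quasi-likelihood test with Benjamini-Hochberg adjustment over all genes tested. A gene is called at an adjusted p under 0.05.

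**Figure D1:**
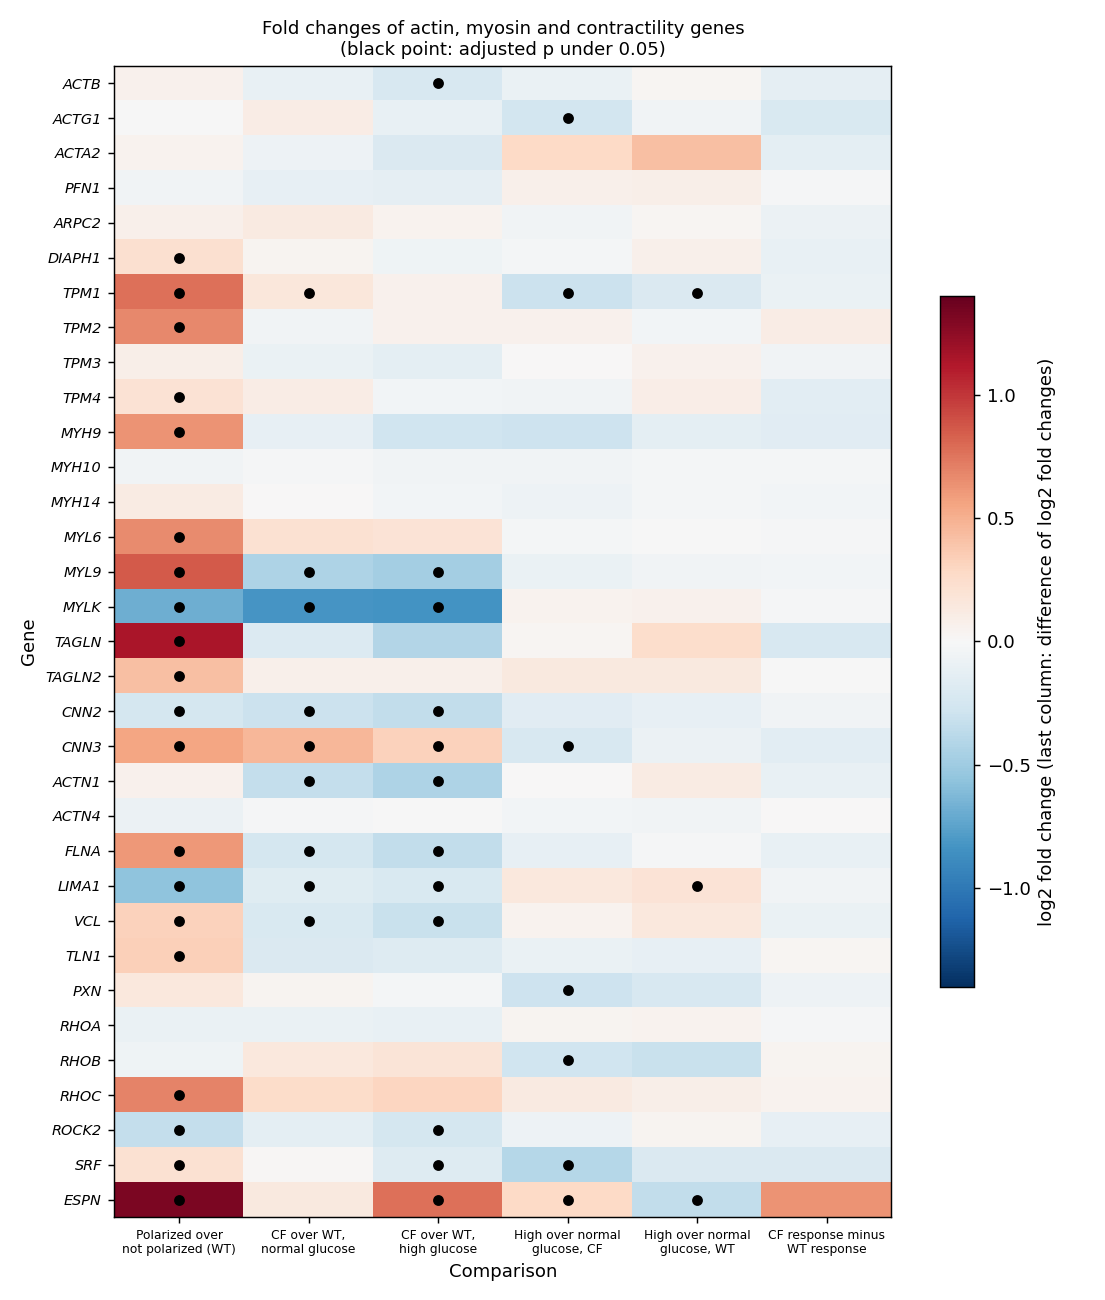
Log2 fold changes of the 33 tested genes (rows, by role) in 5 comparisons and, in the last column, the difference of the glucose responses (CF minus WT). Red is higher and blue lower in the group named first, and a black point marks an adjusted p under 0.05. Points fill 20 of 33 cells in the first column and none in the last, where ESPN has the deepest colour.

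The comparison of CF with WT cells asks how the lines differ in the machinery of contraction. CF cells had lower levels of the myosin light chain kinase gene MYLK and the light chain gene MYL9, and of the genes for actinin-1, vinculin, filamin A, calponin 2 and the LIM protein LIMA1, both in high and in normal glucose. CNN3, another calponin, was higher in CF cells in both media. In high glucose 12 of 33 genes were called, 10 lower and 2 higher in CF cells, where 19.9% of all 16338 genes tested were called (10.6% lower and 9.35% higher). In normal glucose 9 of 33 were called, 7 lower and 2 higher, where 24.4% of all genes were called (13% lower and 11.4% higher). The median log2 fold change was -0.10 for the 33 genes and 0.01 for all genes in high glucose, and -0.05 against 0.00 in normal glucose. The libraries of CF and WT cells did not overlap for 10 of the 33 genes in high glucose, 8 lower and 2 higher in CF cells, where 14.1% of all genes tested did not overlap (7.34% lower and 6.72% higher). In normal glucose they did not overlap for 5, 4 lower and 1 higher, where 13.1% of all genes did not (7.25% lower and 5.89% higher). Those comparisons share no library. The marker lists of other cell types differed between the lines as well. The basal airway list (KRT5, TP63 and NGFR) summed to 61.5 to 107 CPM in CF cells and 35.8 to 48.1 CPM in WT cells in high glucose, and the endothelial list, most of it KDR and CDH5, to 43.3 to 49.9 CPM in CF cells and 22.3 to 29.4 CPM in WT cells. The epithelial sums given above and the immune list, at 1.29 to 1.90 CPM in CF cells and 0.720 to 1.15 CPM in WT cells, were also apart in high glucose. In normal glucose the endothelial list summed to 32.5 to 64.2 CPM in CF cells and 20.02 to 25.3 CPM in WT cells, and the fibroblast list to 16.4 to 26.8 CPM in CF cells and 27.5 to 44.2 CPM in WT cells. The part of these differences in the results was not tested.

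MYLK encodes the calcium- and calmodulin-dependent kinase that phosphorylates the myosin regulatory light chain. It had 24.6, 30.6 and 39.0 CPM in CF cells in high glucose, against 55.2, 46.6, 59.0, 57.8 and 58.2 CPM in WT cells in high glucose. Its normal glucose values were 25.0, 30.1 and 34.4 CPM in CF cells and 46.5, 52.8 and 62.6 CPM in WT cells. Every CF library lay under every WT library in both media. The log2 fold change -0.84 ± 0.10 (SE), adjusted p = 7.77e-07 in high glucose, and the log2 fold change -0.83 ± 0.10 (SE), adjusted p = 4.96e-07 in normal glucose, make it the most changed of the 33 genes in both. Antisense genes within MYLK are few in reads, with MYLK-AS1 at 2.302% of the MYLK count.

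MYL9 encodes a regulatory light chain, the substrate of that kinase. It had 78.4, 91.5 and 105 CPM in CF cells and 129, 131, 126, 118 and 132 CPM in WT cells in high glucose, and 86.02, 96.2 and 106 CPM in CF cells and 124, 129 and 148 CPM in WT cells in normal glucose. No CF library reached the lowest WT library. MYL9 was lower in CF cells in high glucose (log2 fold change -0.48 ± 0.07 (SE), adjusted p = 1.74e-05) and in normal glucose (log2 fold change -0.44 ± 0.07 (SE), adjusted p = 2.71e-05). MYL6, the essential light chain, was not called, at 0.19 (adjusted p = 0.479) in high and 0.21 (adjusted p = 0.355) in normal glucose. In the fit with a term for the library numbers it was called higher in CF cells in both media. SMARCC2 overlaps MYL6 on the opposite strand with 24.26% as many reads, and MYL6B on the same strand with 8.514%. Their part in the MYL6 count was not tested. Summed over MYL6 and MYL9 by FPKM, MYL9 made up 20.1% ± 1.29 in CF cells in high glucose and 28.97% ± 4.40 in WT cells in high glucose, and 21.2% ± 3.58 in CF and 29.4% ± 3.99 in WT cells in normal glucose (SD). MYL6 and MYL9 are light chains of different kinds, and MYL12A and MYL12B are not in the sum. The share therefore does not show a switch between light chains.

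With all libraries the myosin heavy chains were not called between the lines. MYH9 had 1133, 1205 and 1311 CPM in CF cells and 1271, 1284, 1340.2, 1699 and 1743 CPM in WT cells in high glucose, which overlap, with log2 fold change -0.28 ± 0.12 (SE), adjusted p = 0.101. In normal glucose it had 1230.0, 1452 and 1776 CPM in CF cells and 1251, 1608 and 1976 CPM in WT cells, with log2 fold change -0.12 ± 0.11 (SE), adjusted p = 0.501. The spread follows the library numbers: in libraries 4 to 6 alone MYH9 was lower in CF cells in high glucose at -0.48 (adjusted p = 6.76e-07), and in libraries 1 to 3 alone the value was -0.14 (adjusted p = 0.154). Only 2 WT libraries in high glucose belong to the set 4 to 6. With a term for the numbers MYH9 was called lower in CF cells in high glucose, at -0.29 (adjusted p = 3.10e-04). It was also called there with a replicate block on the number (-0.28, adjusted p = 0.00113). With only the libraries of the groups compared it was at -0.28 (adjusted p = 0.0480). MYH10 and MYH14, which encode the heavy chains of non-muscle myosins IIB and IIC, lay between -0.05 and 0.01 in both media with all libraries. In libraries 4 to 6 alone both were called lower in CF cells in high glucose, MYH10 at -0.28 (adjusted p = 0.00593) and MYH14 at -0.29 (adjusted p = 0.00113), and in libraries 1 to 3 alone they were at 0.11 (adjusted p = 0.358) and 0.15 (adjusted p = 0.105). TAGLN had 2.97, 3.52 and 5.41 CPM in CF cells and 4.40, 6.26, 3.12, 5.61 and 5.47 CPM in WT cells in high glucose, and 2.91, 3.35 and 5.62 CPM in CF cells and 3.38, 4.19 and 5.16 CPM in WT cells in normal glucose. The groups overlapped, and TAGLN was not called, at -0.41 (adjusted p = 0.142) in high and -0.19 (adjusted p = 0.526) in normal glucose. TAGLN was called lower in CF cells in high glucose in libraries 4 to 6 alone, at -0.73 (adjusted p = 0.0101), without WT library 3, at -0.54 (adjusted p = 0.0423), and without CF library 3, at -0.55 (adjusted p = 0.0401), while libraries 1 to 3 alone gave -0.15 (adjusted p = 0.725).

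Calponins bind actin filaments and restrain actomyosin sliding in smooth muscle. The 2 calponin genes that were read moved in opposite directions between the lines. CNN2 had 85.6, 91.3 and 101 CPM in CF cells and 111, 106, 121, 122 and 122 CPM in WT cells in high glucose, and was lower in all CF libraries (log2 fold change -0.34 ± 0.06 (SE), adjusted p = 8.03e-05). Levels in normal glucose were 91.1, 104 and 110.5 CPM in CF cells and 116, 126 and 134 CPM in WT cells (log2 fold change -0.30 ± 0.06 (SE), adjusted p = 2.05e-04). CNN3 had 268, 291 and 307 CPM in CF cells and 239, 254, 245, 212 and 211 CPM in WT cells in high glucose, and all CF libraries were higher (log2 fold change 0.32 ± 0.06 (SE), adjusted p = 3.66e-04). In normal glucose it had 323, 339.6 and 352 CPM in CF cells and 212, 248 and 277 CPM in WT cells (log2 fold change 0.47 ± 0.06 (SE), adjusted p = 9.96e-07). By FPKM, CNN2 made up 19.8% ± 0.880 of the calponin sum in CF cells and 28.2% ± 2.84 in WT cells in high glucose, and 19.02% ± 1.24 in CF and 28.6% ± 2.79 in WT cells in normal glucose (SD). Pseudogenes of CNN2 held 0.2275% as many reads as CNN2 itself.

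Of the cross-linkers, ACTN1, which encodes an actinin that bundles filaments at adhesions, had 298, 308 and 328 CPM in CF cells and 389.7, 389, 397, 465 and 454 CPM in WT cells in high glucose. It was lower in CF cells there without overlap (log2 fold change -0.43 ± 0.07 (SE), adjusted p = 7.13e-05), and in normal glucose with overlapping libraries, at 273, 304 and 352 CPM in CF cells and 337, 383 and 434 CPM in WT cells (log2 fold change -0.33 ± 0.07 (SE), adjusted p = 8.99e-04). Its paralog ACTN4 was not called, at -0.01 (adjusted p = 0.954) in high and -0.02 (adjusted p = 0.857) in normal glucose. FLNA, which links filaments at right angles and to integrins, had 1112, 1154 and 1266 CPM in CF cells and 1414, 1316, 1409, 1632 and 1646 CPM in WT cells in high glucose (log2 fold change -0.35 ± 0.09 (SE), adjusted p = 0.00502). In normal glucose it had 1074, 1269 and 1459 CPM in CF cells and 1249, 1532 and 1696 CPM in WT cells (log2 fold change -0.25 ± 0.08 (SE), adjusted p = 0.0346), and there the call ended when any one of 7 libraries was left out (CF libraries 1, 2 and 3 and WT libraries 1, 4, 5 and 6), with adjusted p-values of 0.054 to 0.123. LIMA1, whose product EPLIN ties filaments to the cadherin and catenin complex, was lower in all CF libraries, at 233, 245 and 248 CPM in CF cells and 285, 260.1, 299, 290.3 and 272 CPM in WT cells in high glucose (log2 fold change -0.21 ± 0.05 (SE), adjusted p = 0.00329). In normal glucose it had 208, 219.9 and 232 CPM in CF cells and 232, 244 and 266 CPM in WT cells (log2 fold change -0.16 ± 0.05 (SE), adjusted p = 0.0126). That call was lost in libraries 1 to 3 alone (-0.12, adjusted p = 0.196) and without WT library 4 (adjusted p = 0.0513).

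VCL encodes vinculin, which couples actin to adhesions under tension. It had 238, 245 and 254 CPM in CF cells and 292, 287, 295, 312 and 335 CPM in WT cells in high glucose, without overlap (log2 fold change -0.31 ± 0.06 (SE), adjusted p = 8.09e-04). With normal glucose it had 215, 236 and 261 CPM in CF cells and 242, 274 and 316 CPM in WT cells (log2 fold change -0.21 ± 0.06 (SE), adjusted p = 0.0117), and that call was lost without WT library 5 (-0.16, adjusted p = 0.0649). The other adhesion genes, TLN1 for talin and PXN for paxillin, were not called in either medium with all libraries. Within the sets of numbers TLN1 was lower in CF cells in normal glucose in both, at -0.24 (adjusted p = 0.00607) in libraries 1 to 3 and -0.16 (adjusted p = 0.0225) in libraries 4 to 6. In high glucose it was called in libraries 4 to 6, at -0.26 (adjusted p = 0.00132), and not in libraries 1 to 3, at -0.16 (adjusted p = 0.0832). With a term for the numbers TLN1 was at -0.20 (adjusted p = 0.00121) in high and -0.20 (adjusted p = 4.89e-04) in normal glucose. AP3M1, which overlaps VCL on the opposite strand, was at 32.55% of the VCL count, and was not called in either comparison. CREB3, which overlaps TLN1 on the opposite strand, was at 16.68% of the TLN1 count. It was lower in CF cells without a call, at -0.19 (adjusted p = 0.124) in high and -0.19 (adjusted p = 0.0869) in normal glucose. The part of CREB3 reads in the TLN1 count was not tested.

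**Figure D2:**
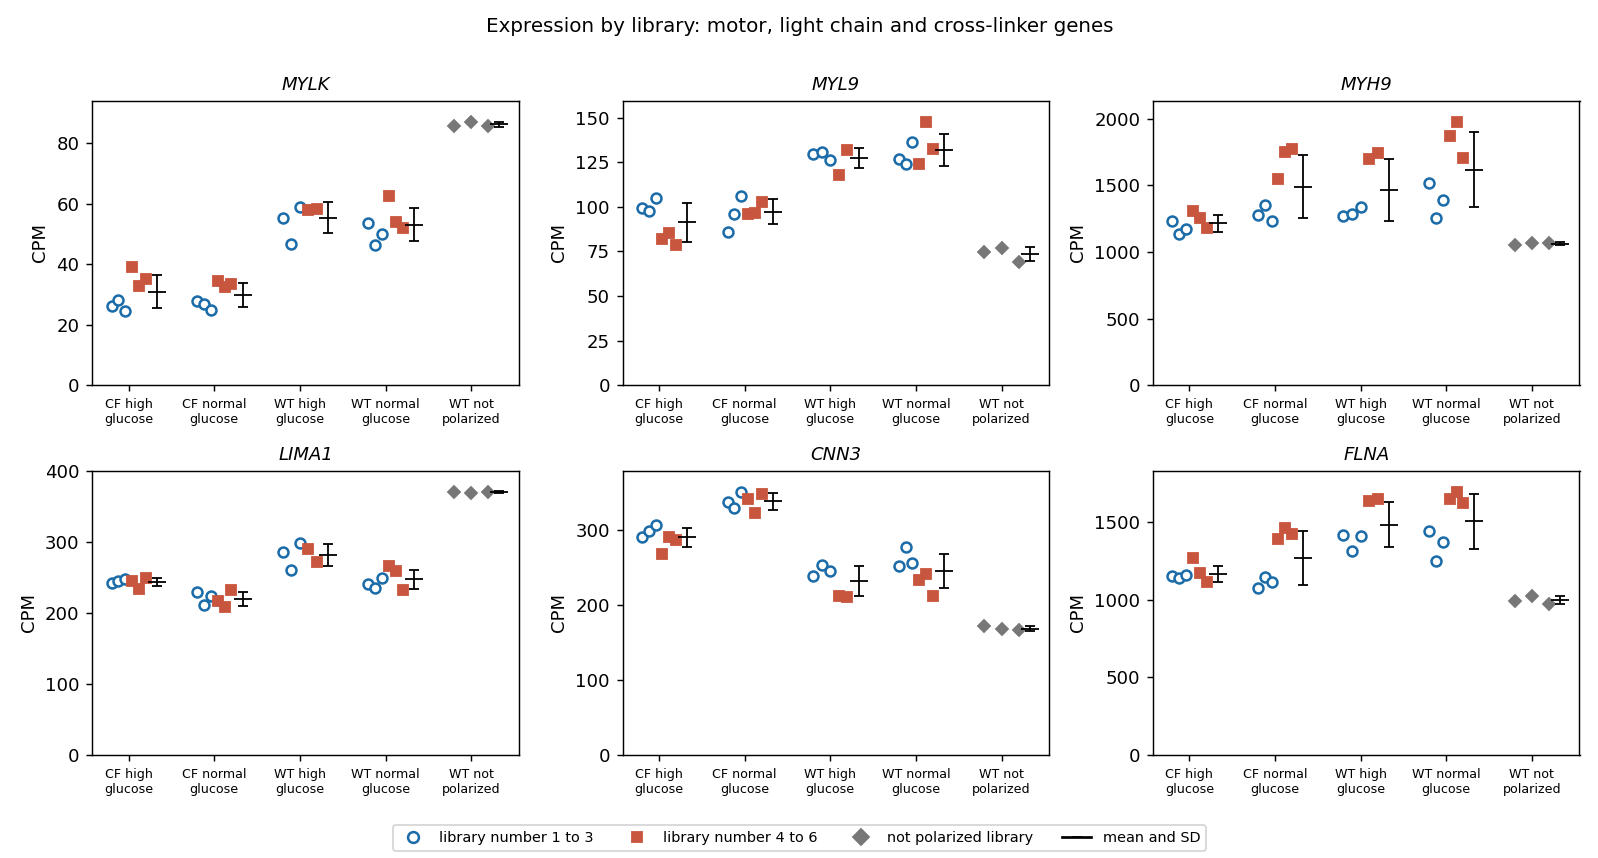
CPM per library (vertical axes, starting at 0) of 6 genes in the 5 groups. Open circles are libraries numbered 1 to 3, squares those numbered 4 to 6 and grey diamonds the not polarized libraries, and the dash with bar is the mean ± SD. For MYLK all CF libraries lie at 24.6 to 39.0 CPM and all polarized WT libraries at 46.5 to 62.6 CPM, while for MYH9 squares lie above circles in 3 of the 4 glucose groups.

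Among the actins, ACTB had 2118, 2286 and 2475 CPM in CF cells and 2489.5, 2446, 2696, 2816 and 2889 CPM in WT cells in high glucose. It was lower in CF cells with overlapping libraries (log2 fold change -0.23 ± 0.06 (SE), adjusted p = 0.0121). In libraries 1 to 3 alone it was at -0.08 (adjusted p = 0.392), and in libraries 4 to 6 alone at -0.43 (adjusted p = 2.14e-06). In normal glucose ACTB had 2291, 2411 and 2623 CPM in CF cells and 2429, 2575 and 2943 CPM in WT cells and was not called (log2 fold change -0.10 ± 0.06 (SE), adjusted p = 0.249). ACTG1 was called in neither medium, at -0.10 (adjusted p = 0.253) in high and 0.11 (adjusted p = 0.179) in normal glucose, but was called lower in CF cells in high glucose in libraries 4 to 6 alone, at -0.20 (adjusted p = 0.0142). ACTB and ACTG1 are near-identical in coding sequence, and the sources used here do not give how shared reads were assigned. By FPKM, ACTB made up 54.5% ± 0.708 of their sum in CF cells and 56.6% ± 1.21 in WT cells in high glucose, and 51.7% ± 0.785 in CF cells and 55.3% ± 0.437 in WT cells in normal glucose (SD).

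Further calls between the lines were single genes. ROCK2, a kinase activated by RHOA that phosphorylates the light chain and the myosin phosphatase, had 57.6, 63.6 and 64.5 CPM in CF cells and 64.6, 67.1, 80.4, 78.4 and 77.6 CPM in WT cells in high glucose. All CF libraries were lower, the highest CF value lying just under the lowest WT value (log2 fold change -0.25 ± 0.06 (SE), adjusted p = 0.00501), and libraries 1 to 3 alone gave -0.20 (adjusted p = 0.101). SRF was lower in CF cells in high glucose, at 89.4, 99.4 and 107 CPM in CF cells and 120.02, 115, 115, 96.5 and 111 CPM in WT cells (log2 fold change -0.18 ± 0.06 (SE), adjusted p = 0.0303). This call was lost when any one of 6 libraries was left out (CF libraries 5 and 6 and WT libraries 1, 2, 3 and 5), with adjusted p-values of 0.0526 to 0.0896, and in libraries 1 to 3 alone (-0.16, adjusted p = 0.0936). TPM1, a tropomyosin, which stabilizes filaments, was higher in CF cells in normal glucose, at 565, 654 and 671 CPM in CF cells and 546, 566 and 614 CPM in WT cells with overlap (log2 fold change 0.15 ± 0.05 (SE), adjusted p = 0.0203). The TPM1 call was lost without a low-count filter (adjusted p = 0.0918) and with only the libraries of the groups compared (adjusted p = 0.0750). ESPN, which encodes the microvillus bundler espin, is described with the glucose response.

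Other genes of the pathway were read from 8 lists with 112 genes, 108 of them tested. Between the lines 37 were called in high glucose, 11 higher and 26 lower in CF cells, and 33 in normal glucose, 15 higher and 18 lower, which is 34.3% and 30.6% of them, where 19.9% and 24.4% of all genes were called. The myosin light chain genes outside the 35 included MYL12A, lower in CF cells at -0.75 (adjusted p = 4.51e-08) in high and -0.57 (adjusted p = 1.80e-06) in normal glucose. MYL12B, a near copy of it, was at -0.52 (adjusted p = 0.00489) and -0.51 (adjusted p = 0.00299). CALD1, the actin- and myosin-binding caldesmon, was at -0.74 (adjusted p = 0.00795) in high and -0.71 (adjusted p = 0.00718) in normal glucose. Of the 9 genes of this list, 3 were lower and 0 higher in CF cells in high glucose. In normal glucose 3 were lower and 2 higher. None of the 18 focal adhesion plaque genes was higher in CF cells, and 8 were lower in high glucose and 4 in normal glucose. PDLIM1, an adaptor of actinin, was one of these at -0.23 (adjusted p = 0.00257) and -0.27 (adjusted p = 3.48e-04). Bundlers and apical myosins split: FSCN1, the filopodial bundler fascin, was lower at -0.69 (adjusted p = 3.10e-09) and -1.02 (adjusted p = 1.07e-12), and MYO5B, a myosin of apical recycling, was higher at 1.37 (adjusted p = 1.61e-10) and 1.53 (adjusted p = 6.34e-12). The severing factor CFL1 was lower at -0.39 (adjusted p = 3.51e-06) and -0.37 (adjusted p = 2.71e-06), and the scaffold PALLD at -0.94 (adjusted p = 4.20e-08) and -0.97 (adjusted p = 1.17e-08). CFL1 does not stand for its list of 17 monomer-binding, capping and severing genes. Of these, 4 were higher and 2 lower in CF cells in high glucose, and 4 higher and 1 lower in normal glucose. Of the 7 tested cross-linker and spectrin genes, 1 was higher and 1 lower in high glucose, and 0 higher and 1 lower in normal glucose. Among targets known to depend on SRF or on its partner pathways, CTGF was lower at -1.62 (adjusted p = 1.30e-14) in high and -0.99 (adjusted p = 3.75e-11) in normal glucose.

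The not polarized libraries ask how the contractile genes stand in polarized cells, here the WT cells in normal glucose. In polarized cells 20 of 33 genes were called, 16 higher and 4 lower, where 50% of all 16105 genes tested were called (26% higher and 24% lower). The higher genes include ESPN, MYL9, MYL6, MYH9, FLNA, TPM1 and TPM2. MYLK, LIMA1, ROCK2 and CNN2 were lower in polarized cells. The median log2 fold change was 0.15 for the 33 genes and 0.02 for all genes. Libraries did not overlap for 20 genes, 15 higher and 5 lower, where 46.6% of all genes tested did not overlap (22.4% higher and 24.2% lower).

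ESPN showed the highest log2 fold change of the 33. It had 31.8, 34.6 and 40.3 CPM in polarized cells and 15.04, 14.4 and 13.5 CPM in not polarized cells (log2 fold change 1.32 ± 0.10 (SE), adjusted p = 8.56e-08). The gap between the groups was wider than the range of either. TNFRSF25, which overlaps ESPN on the opposite strand and holds 97.28% as many reads, was also higher in polarized cells (1.07, adjusted p = 2.44e-04). The sources used here do not give the strand setting of the authors' counting, and the part of TNFRSF25 reads in the ESPN count was not tested.

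Of the motor genes, MYL9 had 124, 129 and 148 CPM in polarized cells and 74.9, 76.7 and 69.1 CPM in not polarized cells (log2 fold change 0.86 ± 0.07 (SE), adjusted p = 4.09e-07). MYL6 had 419, 505 and 661 CPM in polarized cells and 325, 345 and 337 CPM in not polarized cells (log2 fold change 0.66 ± 0.12 (SE), adjusted p = 5.83e-04). MYH9 had 1251, 1608 and 1976 CPM in polarized cells and 1051, 1069.8 and 1064 CPM in not polarized cells (log2 fold change 0.63 ± 0.13 (SE), adjusted p = 0.00114). The heavy chain and both light chains were thus higher in every polarized library. Against polarized libraries 1 to 3 alone MYH9 was at 0.39 and MYL6 at 0.84, and against libraries 4 to 6 alone MYH9 was at 0.83 and MYL6 at 0.46, all called. MYH9 made up 77.0% ± 0.552 of the 3 heavy chains by FPKM in polarized and 69.6% ± 0.249 in not polarized cells (SD), with MYH10 and MYH14 not called. In the sets of numbers MYH10 was called lower against polarized libraries 1 to 3, at -0.28 (adjusted p = 0.00475), and higher against libraries 4 to 6, at 0.15 (adjusted p = 0.0329), and MYH14 was called higher against libraries 4 to 6, at 0.29 (adjusted p = 1.92e-05). NDEL1, which overlaps MYH10 on the opposite strand with 70.09% as many reads, was higher in polarized cells (0.24, adjusted p = 0.0273). Its part in the MYH10 count was not tested. The kinase gene MYLK had the opposite direction to MYL9, MYL6 and MYH9, with 46.5, 52.8 and 62.6 CPM in polarized cells and 85.8, 87.1 and 85.7 CPM in not polarized cells, without overlap (log2 fold change -0.68 ± 0.08 (SE), adjusted p = 9.90e-06). ROCK2 had 63.1, 72.3 and 77.2 CPM in polarized cells and 93.6, 89.2 and 93.1 CPM in not polarized cells and was lower too (log2 fold change -0.34 ± 0.07 (SE), adjusted p = 0.00132).

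Tropomyosins lie along the filament and set which myosins can bind it. TPM1 had 546, 566 and 614 CPM in polarized cells and 333, 343 and 348 CPM in not polarized cells (log2 fold change 0.77 ± 0.06 (SE), adjusted p = 3.65e-07). TPM2 had 95.3, 108 and 114 CPM in polarized cells and 67.9, 65.7 and 68.0 CPM in not polarized cells (log2 fold change 0.68 ± 0.07 (SE), adjusted p = 2.79e-06). TPM1 and TPM2 rose without overlap, whereas TPM3 was not called, at 0.08 (adjusted p = 0.251), and TPM4 was called at 0.20 (adjusted p = 0.0302) but not when any of the 3 not polarized libraries was left out (adjusted p 0.0725 without library 1, 0.0943 without library 2 and 0.132 without library 3). By FPKM, TPM1 made up 22.4% ± 0.979 of the 4 in polarized cells and 16.7% ± 0.372 in not polarized cells, and TPM3 28.9% ± 0.947 and 34.7% ± 0.633 (SD). These shares use 1 length per gene, which merges the many short and long tropomyosin isoforms.

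Calponins and transgelins also divided. CNN3 had 212, 248 and 277 CPM in polarized cells and 172, 168 and 166 CPM in not polarized cells (log2 fold change 0.56 ± 0.08 (SE), adjusted p = 4.55e-05), and CNN2 was lower in polarized cells (log2 fold change -0.24 ± 0.06 (SE), adjusted p = 0.00504). CNN2 made up 28.6% ± 2.79 of the calponin sum in polarized and 41.0% ± 0.886 in not polarized cells (SD). TAGLN, a marker of smooth muscle that binds actin, had 3.38, 4.19 and 5.16 CPM in polarized cells and 2.13, 1.71 and 1.92 CPM in not polarized cells (log2 fold change 1.14 ± 0.19 (SE), adjusted p = 2.54e-04). These are low levels, and PCSK7, which overlaps TAGLN on the opposite strand with 403.2% as many reads, was higher as well (0.39, adjusted p = 0.00609). Its part in the TAGLN value was not tested. TAGLN2 was higher too (log2 fold change 0.42 ± 0.07 (SE), adjusted p = 2.68e-04). The smooth muscle marker list summed to 38.5 to 42.8 CPM in polarized libraries and 20.7 to 22.9 CPM in not polarized libraries, with 7 of 7 markers read in both and DES and ACTG2 near 0. The fibroblast list, most of it COL1A1, summed to 27.5 to 44.2 CPM in polarized and 13.9 to 15.04 CPM in not polarized libraries. The basal list, at 37.5 to 53.6 CPM in polarized and 26.1 to 30.5 CPM in not polarized libraries, and the ciliated or secretory list, at 5.46 to 7.84 CPM and 3.31 to 4.90 CPM, were higher in polarized libraries as well. The endothelial list was lower there, at 20.02 to 25.3 CPM in polarized and 44.8 to 48.8 CPM in not polarized libraries. The part of these differences in the results was not tested.

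Of the 7 cross-linker and adhesion genes, FLNA, VCL and TLN1 were higher in polarized cells, LIMA1 was lower, and ACTN1, ACTN4 and PXN were not called. FLNA had 1249, 1532 and 1696 CPM in polarized cells and 988, 1026 and 974 CPM in not polarized cells (log2 fold change 0.61 ± 0.09 (SE), adjusted p = 1.14e-04), with 0.45 against polarized libraries 1 to 3 alone and 0.76 against libraries 4 to 6 alone. VCL was at 0.32 (adjusted p = 0.00271) and TLN1 at 0.34 (adjusted p = 0.00896). ACTN4 was at -0.08 (adjusted p = 0.296) with every polarized library lower, ACTN1 at 0.06 (adjusted p = 0.518) and PXN at 0.15 (adjusted p = 0.115). ACTN4 was called lower against polarized libraries 1 to 3, at -0.13 (adjusted p = 0.0403), and ACTN1 and PXN higher against libraries 4 to 6, at 0.16 (adjusted p = 0.00426) and 0.25 (adjusted p = 4.74e-05). LIMA1 had 232, 244 and 266 CPM in polarized cells and 370.4, 369 and 369.9 CPM in not polarized cells (log2 fold change -0.57 ± 0.06 (SE), adjusted p = 3.88e-06). RHOC, a small GTPase of cell motility, had 78.0, 94.4 and 116 CPM in polarized cells and 61.8, 60.2 and 57.9 CPM in not polarized cells (log2 fold change 0.69 ± 0.12 (SE), adjusted p = 3.64e-04), with 0.87 and 0.48 in the 2 sets of numbers. RHOA and RHOB were not called with all libraries. Against polarized libraries 1 to 3 alone both were called lower, RHOA at -0.15 (adjusted p = 0.0134) and RHOB at -0.18 (adjusted p = 0.0219), and against libraries 4 to 6 alone they were at -0.04 (adjusted p = 0.564) and 0.06 (adjusted p = 0.405). SRF was higher at 0.21 (adjusted p = 0.00439), and the formin DIAPH1, which RHOA activates to elongate filaments, at 0.23 (adjusted p = 0.0166), a call that ended when any not polarized library was left out (adjusted p 0.0718 without library 1, 0.071 without library 2 and 0.0512 without library 3). The DIAPH1 call was also lost against polarized libraries 1 to 3 alone (0.14, adjusted p = 0.0501). The actins were not called: ACTB had 2429, 2575 and 2943 CPM in polarized cells and 2540.4, 2539.5 and 2527 CPM in not polarized cells (log2 fold change 0.06 ± 0.07 (SE), adjusted p = 0.462), and ACTG1 was at -0.01 (adjusted p = 0.945). Against polarized libraries 4 to 6 alone ACTB was called higher, at 0.13 (adjusted p = 0.0284).

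**Figure D3:**
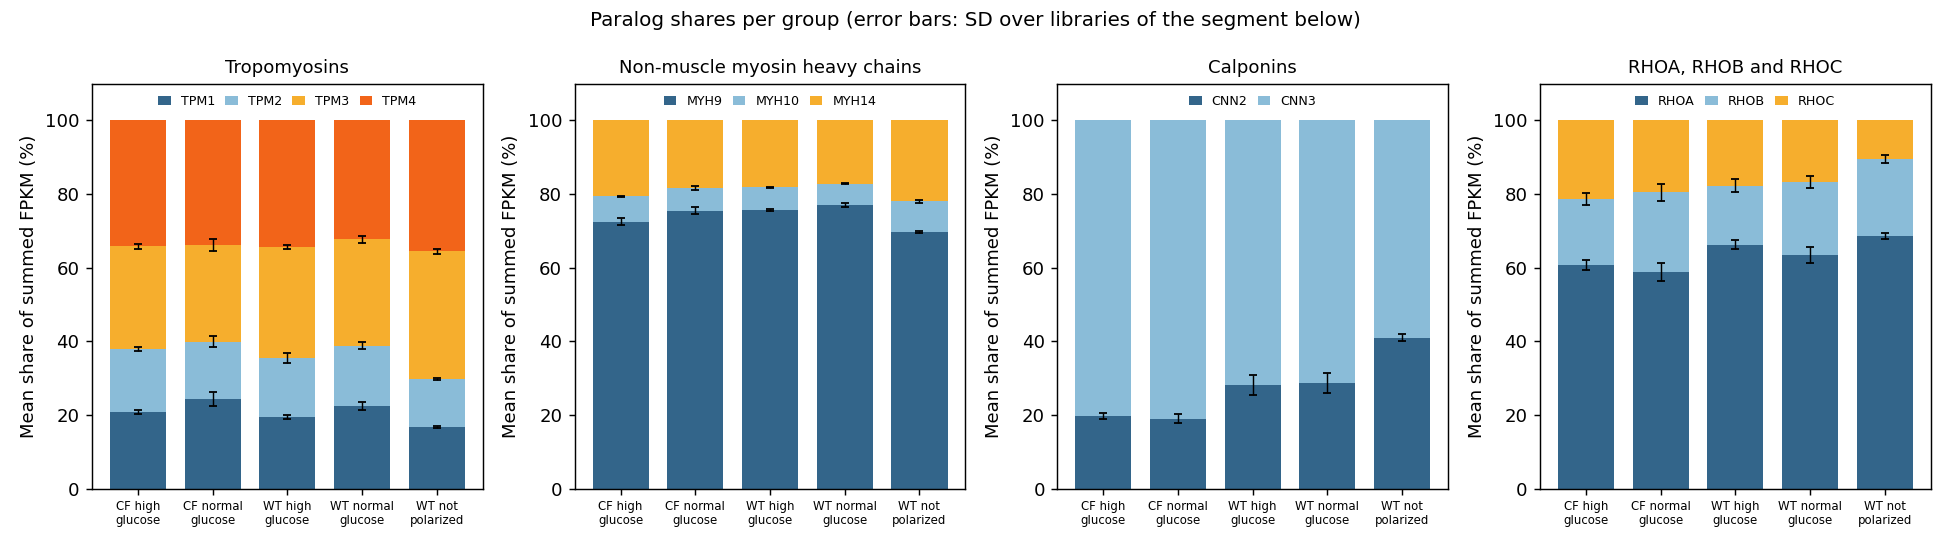
Mean share of each paralog in the summed FPKM of its family (vertical axes, percent) in the 5 groups, with the SD over libraries of each segment as a bar at its top. CNN1, with a share under 0.01%, is left out. The CNN2 segment reaches 41.0% in not polarized cells, 28.2% and 28.6% in the other WT cells and 19.8% and 19.02% in CF cells.

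Of the 108 tested genes of the 8 other lists, 51 were called (47.2%, where 50% of all genes were), 21 higher and 30 lower in polarized cells. The SRF cofactor and target list had 7 lower and 2 higher of 14. Its immediate early genes FOS, at -5.38 (adjusted p = 1.63e-12), and EGR1, at -2.51 (adjusted p = 6.84e-11), were lower in polarized cells, as was CTGF, an adhesion- and tension-responsive gene, at -2.26 (adjusted p = 9.36e-12). SRF itself was higher, as given above. Of 15 Arp2/3 and branched nucleation genes 6 were lower and 2 higher, with WASL, an activator of the complex, at -0.37 (adjusted p = 7.51e-04), while the subunit ARPC2 was not called (0.07 (adjusted p = 0.432)). The plaque genes FERMT1, an integrin activator, at -1.36 (adjusted p = 1.91e-07) and PARVA at -0.91 (adjusted p = 6.22e-07) were lower in polarized cells. The severing protein gene GSN, at 1.06 (adjusted p = 1.33e-08), the synaptopodin gene SYNPO, at 1.09 (adjusted p = 1.13e-06), and MYO7B, a myosin of brush border tips, at 1.86 (adjusted p = 2.20e-05), were higher.

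High against normal glucose asks how a week in 17.5 mM glucose changed these genes. In CF cells 7 of 33 genes were called, 6 lower and 1 higher in high glucose, where 8.41% of all genes tested were called (4.14% lower and 4.27% higher). SRF, TPM1, ACTG1, PXN, CNN3 and RHOB were lower, and ESPN was higher. The median log2 fold change was -0.05 for the 33 genes and 0.00 for all genes. In WT cells 3 of 33 were called, TPM1 and ESPN lower and LIMA1 higher, where 2.96% of all genes were called (1.47% lower and 1.49% higher). Libraries in high and normal glucose did not overlap for 5 genes in CF cells, 4 lower and 1 higher, where 4.68% of all genes did not (2.35% lower and 2.33% higher), and for 3 in WT cells, all lower, where 4.1% did not (2.12% lower and 1.98% higher). The called fold changes lay between 0.756 and 1.21 in CF cells and between 0.785 and 1.14 in WT cells.

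SRF had 89.4, 99.4 and 107 CPM in CF cells in high glucose and 119, 130.4 and 141 CPM in CF cells in normal glucose, with every high glucose library lower (log2 fold change -0.40 ± 0.06 (SE), adjusted p = 4.47e-05). In WT cells it had 120.02, 115, 115, 96.5 and 111 CPM in high and 126, 128 and 134 CPM in normal glucose. Every WT library in high glucose was also lower, but the change was not called (log2 fold change -0.20 ± 0.06 (SE), adjusted p = 0.0586). The difference of the 2 responses was -0.20 (adjusted p = 0.595). The call in CF cells held in both sets of numbers, at -0.28 (adjusted p = 0.00644) in libraries 1 to 3 and -0.54 (adjusted p = 1.73e-08) in libraries 4 to 6. In WT cells DESeq2 (adjusted p = 0.0111) and libraries 4 to 6 alone (adjusted p = 0.00941) called SRF lower. So did a term for the library numbers (adjusted p = 0.00687), a replicate block on the number (0.0193) and a stricter filter (0.0468). Limma-trend on filtered FPKM called it as well (adjusted p = 0.0447 with FPKM + 1 and 0.0470 with FPKM + 0.1). It was not called in libraries 1 to 3 alone, without a filter or with only the libraries compared.

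TPM1 had 483, 520.3 and 551 CPM in CF cells in high glucose and 565, 654 and 671 CPM in CF cells in normal glucose (log2 fold change -0.30 ± 0.05 (SE), adjusted p = 2.64e-04). In WT cells it had 499, 498, 499, 486 and 504 CPM in high and 546, 566 and 614 CPM in normal glucose (log2 fold change -0.21 ± 0.05 (SE), adjusted p = 0.0249). It was lower in all high glucose libraries of both lines. In WT cells the call was lost without any one of 8 libraries (all 5 in high glucose and libraries 4, 5 and 6 in normal glucose), with adjusted p-values of 0.0556 to 0.0846, and in libraries 1 to 3 alone (-0.14, adjusted p = 0.268). The other tropomyosins were not called for glucose in either line. By FPKM, TPM1 made up 20.8% ± 0.643 of the 4 tropomyosins in high and 24.4% ± 1.81 in normal glucose in CF cells, and 19.5% ± 0.511 in high and 22.4% ± 0.979 in normal glucose in WT cells (SD).

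Gamma-actin, ACTG1, had 1509, 1627 and 1727 CPM in CF cells in high glucose and 1738, 1929 and 2167 CPM in CF cells in normal glucose, without overlap (log2 fold change -0.25 ± 0.06 (SE), adjusted p = 0.00404). In libraries 1 to 3 alone it was at -0.12 (adjusted p = 0.226) and in libraries 4 to 6 alone at -0.40 (adjusted p = 2.27e-06). In WT cells it had 1701, 1669, 1789, 1755 and 1782 CPM in high and 1685, 1780.0 and 1956 CPM in normal glucose and was not called (log2 fold change -0.05 ± 0.06 (SE), adjusted p = 0.797). ACTB was not called in CF cells (log2 fold change -0.09 ± 0.06 (SE), adjusted p = 0.425) or in WT cells (log2 fold change 0.03 ± 0.06 (SE), adjusted p = 0.898). Its share of the 2 actins by FPKM was 54.5% ± 0.708 in high and 51.7% ± 0.785 in normal glucose in CF cells (SD).

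PXN, which encodes the adhesion scaffold paxillin, had 232, 249 and 258 CPM in CF cells in high glucose and 258, 313 and 337 CPM in CF cells in normal glucose (log2 fold change -0.29 ± 0.07 (SE), adjusted p = 0.00803). The libraries overlapped by a narrow margin, and within each set of numbers the call held. In WT cells PXN was at -0.22 (adjusted p = 0.107) and was not called, but it was called lower there with a term for the library numbers (-0.20, adjusted p = 0.00356). CNN3 had 268, 291 and 307 CPM in high and 323, 339.6 and 352 CPM in normal glucose in CF cells, without overlap (log2 fold change -0.22 ± 0.06 (SE), adjusted p = 0.0194), and was at -0.08 (adjusted p = 0.636) in WT cells. RHOB, an endosomal small GTPase, had 54.0, 61.4 and 67.7 CPM in high and 59.2, 80.3 and 81.7 CPM in normal glucose in CF cells (log2 fold change -0.28 ± 0.09 (SE), adjusted p = 0.0440). It was at -0.31 (adjusted p = 0.0591) in WT cells, where DESeq2 (adjusted p = 0.0253) and a term for the library numbers (-0.30, adjusted p = 0.00316) called it lower. Leaving out any one of 8 libraries ended the RHOB call in CF cells (1, 2, 4 and 6 in high and 3, 4, 5 and 6 in normal glucose), with adjusted p-values of 0.0635 to 0.104, and libraries 1 to 3 alone gave -0.19 (adjusted p = 0.238). LIMA1 had 285, 260.1, 299, 290.3 and 272 CPM in high and 232, 244 and 266 CPM in normal glucose in WT cells (log2 fold change 0.19 ± 0.05 (SE), adjusted p = 0.0373), and that call was lost without any one of 7 libraries (1, 3 and 4 in high and 1, 2, 3 and 6 in normal glucose), with adjusted p-values of 0.06 to 0.11, and in libraries 4 to 6 alone (0.17, adjusted p = 0.139). In CF cells LIMA1 was at 0.15 (adjusted p = 0.0619), and DESeq2 (adjusted p = 0.0170) and a term for the library numbers (0.15, adjusted p = 0.0214) called it higher. Motor genes were not called for glucose in the fit by group alone. MYL9 was at -0.09 (adjusted p = 0.519) in CF and -0.05 (adjusted p = 0.837) in WT cells, MYH9 at -0.29 (adjusted p = 0.110) and -0.14 (adjusted p = 0.663), and TAGLN at 0.03 (adjusted p = 0.964) and 0.25 (adjusted p = 0.603). With a term for the library numbers MYH9 was called lower in CF cells in high glucose, at -0.28 (adjusted p = 8.19e-04). A replicate block on the number also called it, at -0.28 (adjusted p = 0.00158).

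**Figure D4:**
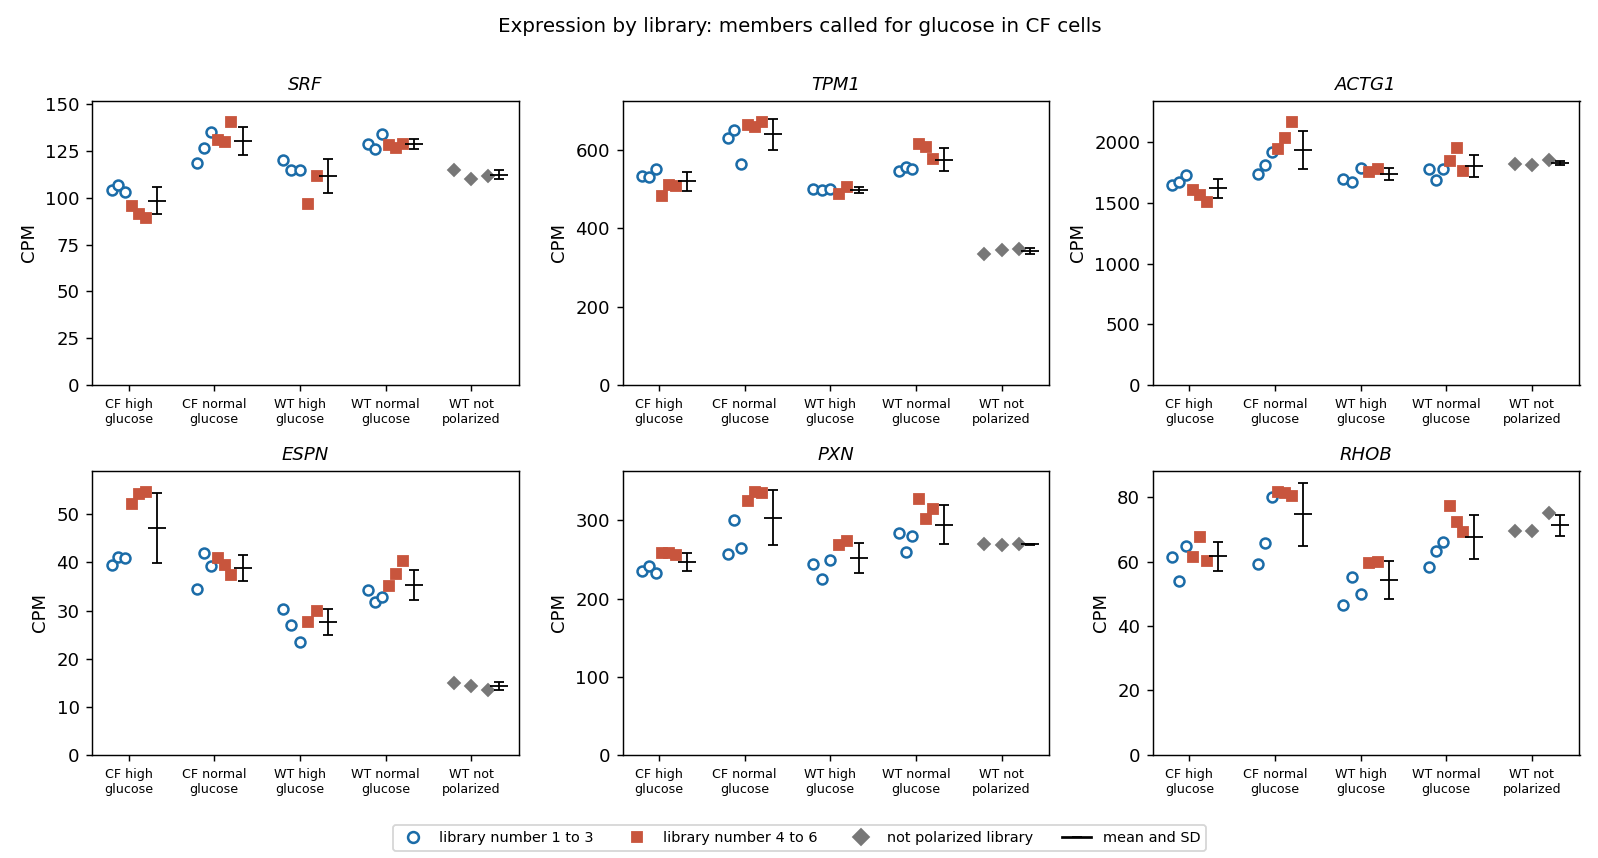
CPM per library (vertical axes, starting at 0) of 6 genes called for glucose in CF cells, in the 5 groups. Open circles are libraries numbered 1 to 3, squares those numbered 4 to 6 and grey diamonds the not polarized libraries, and the dash with bar is the mean ± SD. SRF lies at 89.4 to 107 CPM in CF cells in high glucose, under all CF libraries in normal glucose, and the ESPN squares in CF cells in high glucose lie above all circles of that group.

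ESPN was the only tested gene of the list whose called glucose changes had opposite signs in the lines. It had 39.5, 46.7 and 54.7 CPM in CF cells in high glucose and 34.5, 39.3 and 42.0 CPM in CF cells in normal glucose (log2 fold change 0.28 ± 0.09 (SE), adjusted p = 0.0463). In WT cells it had 30.3, 26.9, 23.6, 27.6 and 29.8 CPM in high and 31.8, 34.6 and 40.3 CPM in normal glucose, without overlap (log2 fold change -0.35 ± 0.09 (SE), adjusted p = 0.0346). In CF cells the 3 high glucose libraries numbered 4 to 6 had 52.1, 54.3 and 54.7 CPM, and those numbered 1 to 3 had 39.5, 41.2 and 40.9 CPM, within the range of normal glucose. In libraries 1 to 3 alone the change in CF cells was 0.06 (adjusted p = 0.729), and in libraries 4 to 6 alone 0.45 (adjusted p = 2.03e-05). The call in CF cells was lost when any one of 8 libraries was left out (4, 5 and 6 in high and 1, 3, 4, 5 and 6 in normal glucose), with adjusted p-values of 0.0679 to 0.141. In WT cells it was lost without any one of 7 (2, 3 and 4 in high and 1, 4, 5 and 6 in normal glucose), with adjusted p-values of 0.0565 to 0.143, and in libraries 1 to 3 alone (-0.29, adjusted p = 0.114).

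The difference of the ESPN responses, CF minus WT, was 0.63 ± 0.13 (SE) on the log2 scale with an adjusted p of 0.0826, which was not called. It was called without CF high glucose library 1 and without CF high glucose library 3, and not when any other library was left out. With RLE size factors, a stricter filter, limma-trend or libraries 1 to 3 alone it was not called either. With DESeq2 the adjusted p of this difference was 0.00621, and with a term for the library numbers it was 9.66e-04. In high glucose ESPN was 1.70-fold higher in CF than in WT cells without overlap (log2 fold change 0.77 ± 0.09 (SE), adjusted p = 4.19e-07), and in normal glucose it was at 0.14 (adjusted p = 0.270). TNFRSF25, its partner on the opposite strand, was not called in any glucose or line comparison, with log2 fold changes of -0.14 to 0.19. No other gene of the 33 was called for the difference of responses, where 0.0367% of all genes were called (0.0122% higher and 0.0245% lower). At an unadjusted p under 0.05 there were 3 of 33 genes, where 6.79% of all genes were, and DESeq2 called 1, where it called 0.41% of all genes.

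In CF cells the counts of genes called for glucose differed between the sets of library numbers. In libraries 4 to 6 alone 14 of 33 genes were called, 13 lower and 1 higher in high glucose, where 13.8% of all genes tested were called. In libraries 1 to 3 alone 5 were called, where 8.44% of all genes were called. MYH9 was at -0.44 (adjusted p = 2.07e-06) in libraries 4 to 6 and -0.13 (adjusted p = 0.238) in libraries 1 to 3. FLNA was at -0.27 (adjusted p = 6.43e-04) and 0.04 (adjusted p = 0.741) in the same order, and MYL9 at -0.27 (adjusted p = 0.00466) and 0.06 (adjusted p = 0.664). SRF, TPM1, PXN and CNN3 were lower in both. With libraries 4 to 6 alone the difference of responses was called for ACTB at -0.32 (adjusted p = 0.0458), ACTG1 at -0.35 (adjusted p = 0.0184), MYH9 at -0.35 (adjusted p = 0.0321) and ESPN at 0.83 (adjusted p = 7.40e-06). These values rest on only 2 libraries of WT cells in high glucose. Whether the 2 sets themselves differ in the glucose response was not tested.

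The other comparisons were counted within the sets of library numbers in the same way. In libraries 4 to 6 alone, 22 of 33 genes were called between CF and WT cells in high glucose (27.9% of all genes tested) and 14 in normal glucose (30.3%). WT cells in high glucose have only 2 libraries in that set. In libraries 1 to 3 alone these were 10 (19%) and 11 (22.8%). For glucose in WT cells 5 were called in libraries 4 to 6 (4.88% of all genes) and 1 in libraries 1 to 3 (2.65%), and for the difference of responses 4 (2.29%) and 0 (0.00626%). In polarized cells 26 were called against libraries 4 to 6 (58.4%) and 23 against libraries 1 to 3 (58.2%). With a term for the library numbers over all 23 glucose libraries, 7 genes were called for glucose in WT cells (8.68% of all genes), 10 in CF cells (17.2%), 1 for the difference (0.894%), and 17 and 14 between CF and WT cells in high (30.4%) and normal glucose (34.5%). Beside those already described, the calls gained within a set were these. In libraries 4 to 6 alone RHOC was higher in CF cells in high glucose, at 0.35 (adjusted p = 1.66e-04), and in normal glucose, at 0.32 (adjusted p = 1.09e-04), and libraries 1 to 3 alone also called it in high glucose, at 0.32 (adjusted p = 0.0100). TPM3 was lower in CF cells in libraries 4 to 6 alone, at -0.23 (adjusted p = 0.00437) in high and -0.17 (adjusted p = 0.0174) in normal glucose, as were PFN1 in high glucose, at -0.28 (adjusted p = 4.95e-04), and ROCK2 in normal glucose, at -0.19 (adjusted p = 0.0200). MYL6 was higher in CF cells in libraries 4 to 6 alone in high glucose, at 0.32 (adjusted p = 2.44e-04), and in both sets in normal glucose, and TPM4 in libraries 1 to 3 alone in normal glucose, at 0.20 (adjusted p = 0.0157). For glucose in CF cells these were ACTB, MYH14, CNN2 and TLN1, lower in libraries 4 to 6, and TAGLN2, higher in libraries 1 to 3, at 0.23 (adjusted p = 0.0196). For glucose in WT cells they were PXN, at -0.20 (adjusted p = 0.0440), and RHOB, at -0.27 (adjusted p = 0.0216), both lower in libraries 4 to 6. PFN1 was lower in polarized libraries 4 to 6, at -0.11 (adjusted p = 0.0307).

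**Figure D5:**
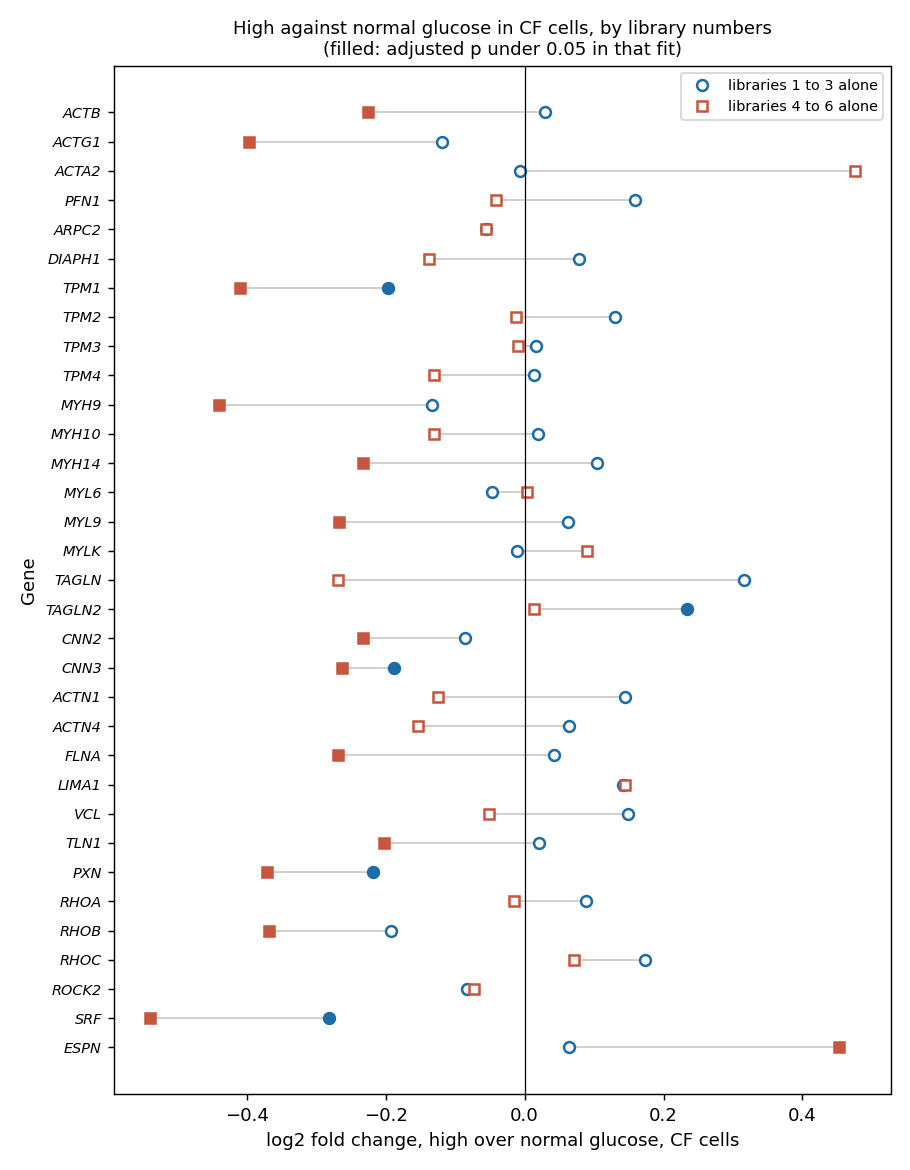
Log2 fold changes of high over normal glucose in CF cells (horizontal axis) of the 33 tested genes (rows), from libraries 1 to 3 alone (circles) and libraries 4 to 6 alone (squares). Filled symbols mark an adjusted p under 0.05 in that fit. MYH9 lies at -0.44 for the squares and -0.13 for the circles, and SRF is filled in both.

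Outside the 35 genes, glucose called 14 of the 108 list genes in CF cells, 5 higher and 9 lower, and 3 in WT cells, 2 higher and 1 lower. These are 13% and 2.78% of the list genes, where 8.41% and 2.96% of all genes were called. WASF2, which activates branched nucleation downstream of Rac, was lower in both lines, at -0.45 (adjusted p = 4.00e-04) in CF and -0.30 (adjusted p = 0.0385) in WT cells. The light chain phosphatase subunit PPP1R12C was at -0.28 (adjusted p = 0.0152) in CF cells and the light chain kinase DAPK3 at -0.26 (adjusted p = 0.0166). For 2 genes of the SRF list the responses themselves differed, CTGF at -0.63 (adjusted p = 0.0176) and FHL2, a LIM protein that binds SRF, at -0.55 (adjusted p = 0.0176), both as CF minus WT. CTGF was at -0.35 (adjusted p = 0.00314) in CF and 0.28 (adjusted p = 0.0295) in WT cells.

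Not every gene of the list was called somewhere. ACTA2, ACTN4, ARPC2, MYH10, MYH14, PFN1, RHOA and TPM3 were called in none of the 6 comparisons in the fits by group alone with all libraries. With a term for the library numbers ARPC2 was called higher in CF cells in normal glucose, at 0.13 (adjusted p = 0.0247). TPM3 was called lower in CF cells in high glucose with that term, at -0.13 (adjusted p = 0.0306). The comparisons share libraries: CF libraries in normal glucose stand in both a glucose and a line comparison, and their WT counterparts in 3, so a value high or low in such a group enters each of them.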

How the data were processed

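RNA-seq read counts and FPKM per gene were deposited for 26 libraries. Per the labels, poly-A RNA was fragmented and primed with random hexamers, with either a directional or a non-directional second strand. Per the submitters' processing notes, reads were aligned to hg38 with HISAT2. The sources used here do not give the counting tool or its strand setting. The deposited counts are whole numbers per gene, not normalized. The FPKM made by the authors equal the count per length and per library total times 1 factor per library (0.945 to 1.07), and were used to compare levels between genes.

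Library sizes were scaled with TMM (edgeR 4.0.16, R 4.3.3). Genes passing filterByExpr (minimum count 10, minimum total 15) were fitted by group and tested with glmQLFTest: 23 libraries of the 4 glucose groups in 1 fit (16338 genes, 19 residual degrees of freedom), and the polarized against not polarized WT libraries in a fit of their own (16105 genes, 7 residual degrees of freedom). P-values were adjusted over all genes tested, with 0.05 as threshold. The test was checked on simulated counts. Alternatives were DESeq2 1.42.0, RLE size factors, other filters, limma-trend 3.58.1 on log2(FPKM + 1) and log2(FPKM + 0.1), other sets of libraries, library-number terms and leaving out each library.

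The 35 genes, the lists of other genes and the markers were chosen with earlier results of these data known, and support nothing by themselves. Values per library are given for up to 8 called genes per comparison by smallest p, and always for ACTB, ACTG1, MYH9, MYL9 and TAGLN. Of the other lists up to 3 called genes per list by smallest p were eligible to be named. Library numbers were not taken as pairs, since in no comparison did every same-numbered pair correlate above 0.1.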

Additional observations from a re-analysis of the deposited data

Results flagged for a closer look

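Within groups of 4 to 10 libraries, the highest or the lowest library was set against Dixon's 95% limit in 132 groups of CPM values, and 4 single libraries stood apart, where chance gives about 1 in 20 groups. ACTN4 was lowest in WT normal glucose library 2, at 687 CPM against 750.0 CPM in the nearest library. SRF was highest in WT normal glucose library 3, at 134 CPM against 129 CPM in the nearest, in a group whose whole range was narrow. TAGLN was highest in CF normal glucose library 4, at 5.62 CPM against 3.73 CPM in the nearest. TAGLN2 was highest in CF normal glucose library 3, at 486 CPM against 444 CPM in the nearest. None of the 4 came from the same library.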

How the results depend on the processing

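Of 51 calls among the 33 tested genes, 34 held under every alternative run for them. The share of all genes called in the same fit stands in brackets. The number of these genes called for glucose in WT cells (3) was 5 with DESeq2 (4.95%), 1 without a low-count filter (0.915%), 1 with only the libraries compared (2.59%), 7 with a term for library numbers (8.68%), 1 in libraries 1 to 3 alone (2.65%) and 5 in libraries 4 to 6 alone (4.88%). For glucose in CF cells (7) it was 4 without a filter (2.55%) and 14 in libraries 4 to 6 alone (13.8%). For the difference of the responses (0) it was 1 with DESeq2 (0.41%), 1 without a filter (0.0172%), 1 with the term (0.894%) and 4 in libraries 4 to 6 alone (2.29%), each time with ESPN. For CF against WT cells in normal glucose (9) it was 14 with the term (34.5%) and 14 in libraries 4 to 6 alone (30.3%), and in high glucose (12) it was 22 in libraries 4 to 6 alone (27.9%). The cause was not tested. With a replicate block on the library number, a pairing that only the numbers give, 6 were called for glucose in WT cells (6.68%), 10 in CF cells (15.7%), 1 for the difference (0.447%), 13 and 17 for CF against WT cells in normal (33.2%) and high glucose (28.1%), and 21 for polarized cells (55.2%). Leaving out each library in turn gave 0 to 2 for glucose in WT cells (1.7% to 2.86%; 0 without normal glucose library 6 or high glucose library 3 or 4), 5 to 7 in CF cells (6.53% to 9.81%), 0 to 1 for the difference (0% to 0.117%), 7 to 10 and 11 to 13 for CF against WT cells in normal (22.3% to 24.7%) and high glucose (17.3% to 18.9%), and 18 to 21 for polarized cells (40.5% to 52.5%). MYH10, not called in polarized cells (-0.05), was called higher there against libraries 4 to 6 alone (0.15, adjusted p = 0.0329) and lower against libraries 1 to 3 alone (-0.28, adjusted p = 0.00475) and with the replicate block (-0.28, adjusted p = 0.00276). RHOA and RHOB were also called lower with the block (adjusted p = 0.0440 and 0.0306). The not polarized libraries are numbered 1 to 3 only, so in this comparison the block rests on polarized libraries 1 to 3. It is therefore not separate from the result of libraries 1 to 3 alone. Over all genes, the term for library numbers raised the calls to 1418 (from 484) for glucose in WT cells, 2812 (1374) in CF cells, 146 (6) for the difference and 4973 (3253) for CF against WT cells in high glucose. Depth limits CNN1, VIL1, ACTA2 and TAGLN, and for ACTA2 and TAGLN the part of reads from overlapping genes was not tested either.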
